A study of Ovis aries with 6 samples.

Results

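OXT encodes the precursor of the hormone oxytocin and OXTR encodes its receptor. Both genes were taken by symbol from the 30574 genes of the deposited counts, and these 2 members were read in all 52290 barcodes of 6 sheep ovaries. The ovaries came from adult Hu ewes killed shortly after oestrus was seen, 1 ovary per ewe and 1 droplet-based single-cell library per ovary. The 3 ewes of the HLS group bore litters of at least 3 lambs and the 3 ewes of the LLS group bore litters of fewer than 2 lambs, and no other treatment, genotype or age was given per ewe in the labels. Whole ovaries were dissociated, so follicles, stroma, vessels and any luteal tissue of an ovary could enter the same library.

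Oxytocin is best known as a hypothalamic hormone stored in the posterior pituitary, but in ruminants the corpus luteum also makes it in large amounts, mainly in large luteal cells that derive from granulosa cells of the ovulated follicle. The peptide is cut from a precursor that also contains a neurophysin, and it is amidated before release. Its receptor is coupled to a G protein of the Gq family, which activates phospholipase C and raises calcium in the cell. In the uterus of the ewe, oxytocin drives the release of prostaglandin F, which in turn ends the life of the corpus luteum.

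The 6 libraries held 43329214 to 75549906 UMI, where a UMI (unique molecular identifier) marks 1 captured RNA molecule. After the quality limits of the study and the removal of called doublets, 36457 cells were retained, 5189 to 7096 per ewe, and formed 31 clusters in which OXT and OXTR themselves took no part. Clusters were named with the ending -like where fixed markers allowed it, and the others are called here after a gene among their 10 leading genes. The HTRA3-led cluster, for example, had 893 cells, scored highest for granulosa markers but under the limit for a name, and counted GCG, TIMP1, SERPINE2, HTRA3 and PCSK1 among its 10 leading genes. Libraries shared 297 barcode sequences, which covered 594 barcodes, none of them with 30 or more OXT UMI. LLS replicate 3 stood apart from the other 5 libraries in OXT, so several results that rest on it are given with and without it.

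OXT was detected in every ewe, and nearly all of its UMI came from 1 of them. HLS replicates 1, 2 and 3 held 687, 361 and 560 OXT UMI, and LLS replicates 1, 2 and 3 held 688, 631 and 45975. LLS replicate 3 therefore carried 94.0% of the 48902 OXT UMI of the series. Per 1000000 UMI of the library, OXT amounted to 10.4, 5.11 and 8.95 in the HLS ewes and to 9.11, 14.6 and 764 in the LLS ewes. The other 2 LLS ewes thus lay close to the HLS range, and the groups overlapped. OXT was found in 2.43% to 3.63% of the barcodes of 5 ewes and in 19.4% of those of LLS replicate 3.

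Barcodes with at least 30 OXT UMI, called OXT-high here, separated most of this RNA from the low counts found elsewhere. HLS replicates 1, 2 and 3 had 2, 1 and 1 OXT-high barcodes, and LLS replicates 1, 2 and 3 had 5, 0 and 105. These 114 barcodes held 90.2% of all deposited OXT UMI, with 94.9% of those of LLS replicate 3 and 17.6% of those of the other 5 ewes together. In LLS replicate 3 the counts ran without a gap across the limit, since the highest barcode outside it had 29 OXT UMI and the lowest inside it had 31. In the other ewes the highest barcodes outside it had 13, 23 and 19 OXT UMI in HLS and 18 and 24 in LLS replicates 1 and 2. No OXT-high barcode was found among the 8777 barcodes of LLS replicate 2, which allows a share of up to 0.0342%. This limit is 3 counts over the number of barcodes, and the upper end of the exact 95% interval is 0.0420%. Both, like all intervals given here, cover counting error only.

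**Figure D1:**
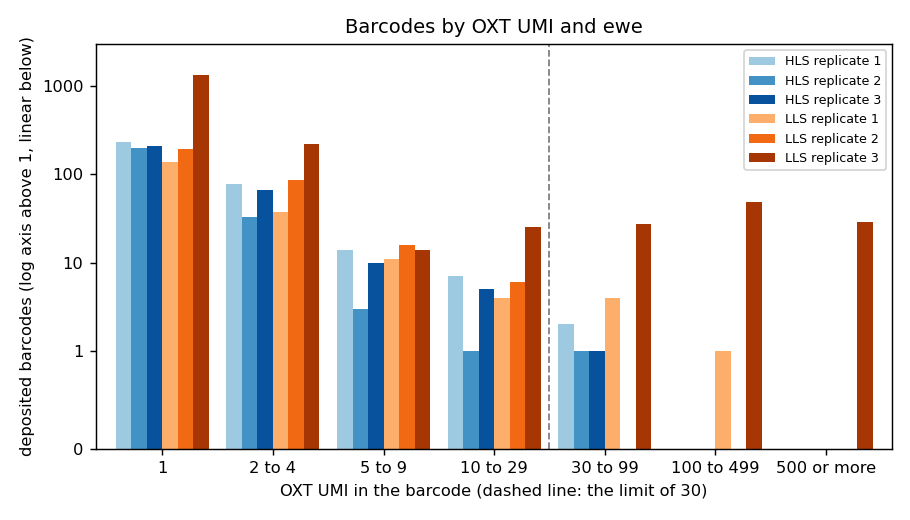
Number of barcodes (vertical axis, linear up to 1 and logarithmic above) by OXT UMI per barcode (horizontal axis, in bins) for each of the 6 ewes. LLS replicate 3 fills every bin up to its highest barcode of 2060 OXT UMI, whereas the highest barcode of the other 5 ewes had 142.

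Within LLS replicate 3 the 105 OXT-high barcodes were themselves very uneven. Their OXT count ranged from 31 to 2060 with a median of 211, and 78 of them had at least 100, 29 at least 500 and 14 at least 1000. The 10 highest held 36.9% of the OXT UMI of these barcodes. The barcodes also differed in depth, from 544 to 51898 UMI with a median of 9548. The Spearman correlation of OXT with total UMI across the 105 barcodes was 0.69, given as a description because OXT is part of the total and all barcodes share 1 library. As a share of the barcode's RNA, OXT had a median of 301 and a range of 6.74 to 1313 UMI per 10000 UMI.

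Of these 105 barcodes, 90 were retained as cells. The other 15 were 9 called doublets, 2 barcodes under 1000 UMI, 3 over the mitochondrial limit and 1 over the haemoglobin limit. Among the retained, 88 fell into 1 cluster and 2 into the ACTA2-led cluster. That cluster was led by OXT among its genes even though OXT had not been used to form it, and it held 104 cells of LLS replicate 3, 1.47% of the ewe's retained cells (95% exact binomial interval 1.20 to 1.77). All 104 had OXT, 88 of them at least 30 UMI and 16 fewer. The same cluster held 4 cells of HLS replicate 1, 2 of LLS replicate 1 and 2 of LLS replicate 2, and of these 8 cells only 1, from LLS replicate 1, had any OXT.

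The 9 OXT-high barcodes of the other ewes were lower and did not share a cluster. HLS replicate 1 had 43 and 59 OXT UMI in 2 perivascular-like cells, at 60.3 and 59.2 UMI per 10000 UMI. HLS replicate 2 had 41 OXT UMI in an immune-like cell of 33274 UMI, and HLS replicate 3 had 46 in a cell of the HTRA3-led cluster. LLS replicate 1 had 142 OXT UMI in a barcode of only 1790 UMI in a cluster with S100A8 among its leading genes, 66 in a cell of the OXT-led cluster, 53 in a called doublet, and 34 and 31 in barcodes under 1000 UMI. None of these barcodes had a UMI of the 2 globin genes described next.

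Globin RNA lay mostly in the OXT-high barcodes of LLS replicate 3. The globin genes LOC101105185 and LOC100134870 together had 13648 UMI in LLS replicate 3, 15 in HLS replicate 2 and 0 in the other 4 ewes, and 89.3% of those of LLS replicate 3 lay in its OXT-high barcodes. Of these 105 barcodes, 86 had globin UMI, 46 had at least 30 and 19 had none, and only 6 other barcodes of the ewe reached 30. The haemoglobin share of an OXT-high barcode had a median of 0.449% and a highest value of 5.66%. Across the 105 barcodes the Spearman correlation of this share was 0.057 with OXT UMI and 0.221 with OXT per 10000 UMI. Mitochondrial RNA was low in many of the same barcodes. It made up less than 0.5% of the UMI in 37 of the 105 (35.2%), against 2.04% of the other retained cells of that ewe. The part of globin RNA and of low mitochondrial RNA in the OXT result was not tested.

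The OXT-high cells were also described by their mitochondrial share, where the limit of 30 OXT UMI by itself sets a high OXT level in each set. OXT reached 272 UMI per 10000 UMI in the 34 retained cells under 0.5% mitochondrial UMI, 271 in the 16 cells from 0.5% to 2% and 354 in the 40 cells at 2% and over. These 3 sets differed in depth, with median totals of 6220.5, 6919.5 and 20040.5 UMI. HSD3B1, the enzyme that makes progesterone from pregnenolone, stood at 16.4, 19.6 and 13.9 UMI per 10000 UMI in the same order. IL1RL1, the receptor of interleukin 33, stood at 6.08, 12.5 and 24.1. PCSK1, a convertase that cuts prohormones, stood at 0.605, 0.0735 and 1.91, and PTGFR, the receptor of prostaglandin F, at 2.77, 0.955 and 6.09. No test was made, since all cells came from 1 ewe.

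To describe what else the OXT-high cells expressed, the 90 retained cells of LLS replicate 3 were set beside the 295 granulosa-like cells of the same ewe. Both sets come from 1 library, so no test was possible and a gene is counted as higher or lower from a 2-fold ratio, computed after adding 0.1 to both levels in UMI per 10000 UMI. The OXT-high cells were deeper, with a median of 8794.5 against 4637 UMI. Of 11164 genes with enough UMI to be counted, 10.5% were at least 2-fold higher in the OXT-high cells and 13.7% at least 2-fold lower, with a median log2 ratio of -0.12 over all of them. The level of OXT, which chose the cells, was 325 UMI per 10000 UMI against 0.434.

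Genes of luteinization and steroid synthesis were higher in the OXT-high cells, at 7 of 10 counted genes, with none lower and a median log2 ratio of 2.45. CYP11A1, the side-chain cleavage enzyme that starts steroid synthesis, stood at 11.5 against 0.410 UMI per 10000 UMI, and the theca-like cells of the ewe had 7.46. FDX1, which passes electrons to that enzyme, stood at 10.6 against 0.544, with 9.22 in theca-like cells. SCARB1, which takes up cholesterol from lipoproteins, stood at 2.97 against 0.318, and LHCGR, the receptor of luteinizing hormone, at 0.316 against 0.037, with 11.2 in theca-like cells. HSD3B1, chosen after its value was seen, stood at 15.2 against 0.141. STAR, which carries cholesterol into mitochondria, had only 10 UMI in the OXT-high cells, at 0.086 against 0.006 UMI per 10000 UMI, and did not pass the 2-fold limit.

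Genes of follicular granulosa cells went the other way, with 9 of 9 counted genes lower and a median log2 ratio of -3.03. Apart from INHBB and IHH, these genes were also among the markers by which granulosa-like cells were named. Their direction was therefore largely set by the choice of comparison cells. INHBB and IHH were lower too, at 0.086 against 1.52 and 0 against 0.715 UMI per 10000 UMI. FST, the activin-binding follistatin, stood at 0.162 against 10.9 UMI per 10000 UMI. The inhibin and activin subunit genes INHBA and INHA stood at 0.103 against 4.297 and at 0.830 against 5.07. HSD17B1, which converts oestrone to oestradiol, stood at 0.556 against 2.32. FSHR, AMH, IHH and CYP19, the symbol under which the counts list aromatase, had no UMI in the OXT-high cells, where 0 of 90 cells allows a share of up to 3.33% of cells with a UMI, which is no limit on cells that express the gene. The HTRA3-led cluster of the same ewe also lay under granulosa-like cells in these genes. It had FST, INHA and HSD17B1 at 0.198, 0.161 and 0.173, AMH at 0.037 and no UMI of IHH and CYP19. INHBA, INHBB and FSHR stood above the OXT-high cells there, at 1.31, 0.976 and 0.692.

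The markers of the fixed lists were summed to check which cell types the OXT-high cells resembled. The 6 luteal markers summed to 34.7 UMI per 10000 UMI against 1.09 in granulosa-like and 22.1 in theca-like cells, and none of the 6 was at 0. Most of this sum came from HSD3B1 and CYP11A1, at 15.2 and 11.5, with PTGFR and SCARB1 at 4.69 and 2.97. STAR and LHCGR, at 0.086 and 0.316, were lower than in theca-like cells, which had 0.219 and 11.2. The 8 granulosa markers summed to 2.30 against 29.9, with 3 at 0, and the 4 theca markers to 0.410 against 17.1 in theca-like cells, with INSL3 at 0. Granulosa-like and theca-like cells were named by these same markers, so their higher sums largely follow from the naming. Stromal markers summed to 7.53 against 3.73 in granulosa-like cells, epithelial markers to 2.97 against 0.348 and immune markers to 1.05 against 0.318, with 3 of the 8 immune markers at 0. These 3 sums rested on few genes. COL1A1 and COL1A2 gave 4.61 and 2.20 of the stromal sum, while PDGFRA, DCN and TCF21 were lower than in granulosa-like cells. KRT18 gave 2.95 of the epithelial sum, with 3 of 5 markers at 0, and PTPRC gave 0.975 of the immune sum. Theca-like cells reached 45.9 on the stromal list. Endothelial markers summed to 0.316 and red blood cell markers, of which 3 were in the counts, to 87.7. The cluster was given no cell type name, because its highest score was for the red blood cell list and rested on fewer than 3 detected markers.

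**Figure D2:**
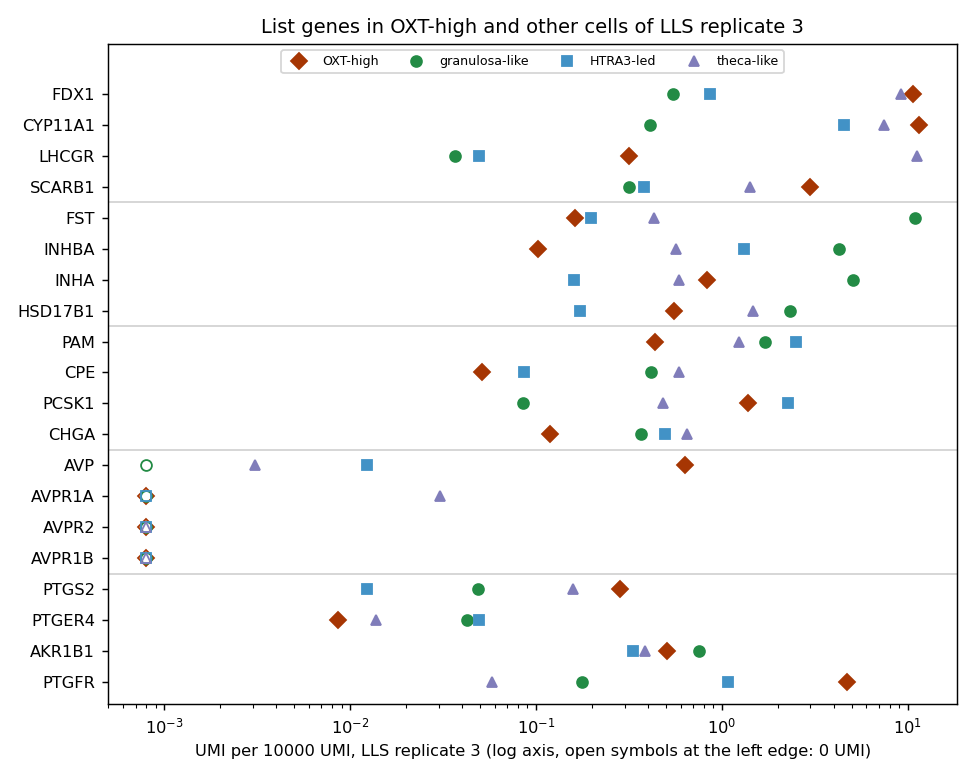
Level in UMI per 10000 UMI (logarithmic axis) of the 4 highest genes of each of 5 gene lists in LLS replicate 3, in its OXT-high cells, granulosa-like cells, HTRA3-led cluster and theca-like cells. Open symbols mark genes without a UMI. CYP11A1 and FDX1 were higher and FST, INHBA and INHA lower in OXT-high than in granulosa-like cells.

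Genes that process and store peptide hormones were split. The convertase PCSK1 stood at 1.39 UMI per 10000 UMI in OXT-high cells against 0.086 in granulosa-like cells. PAM, the enzyme that amidates oxytocin, stood at 0.436 against 1.71. CPE, which trims the cut peptides, stood at 0.051 against 0.416, and CHGA, a granule protein, at 0.120 against 0.367. In all, 2 of 5 counted genes were higher and 3 lower. AVP, the gene of vasopressin and in the annotation of RefSeq the neighbour of OXT, had 74 UMI in the OXT-high cells and 0 in the granulosa-like cells, so it was at least 34.5-fold higher when set against 3 counts over all granulosa-like cells. AVP and OXT share much of their neurophysin sequence, and whether reads were split between them was not tested. The vasopressin receptor genes AVPR1A, AVPR1B and AVPR2 had no UMI in either set.

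Among genes that act downstream of the receptor, 4 of 18 counted genes were higher, 2 lower and 12 neither. RHOA, MYLK and ROCK2, which carry the signal to actin and myosin, stood at 2.75, 0.145 and 1.39 against 1.498, 0.318 and 1.48 UMI per 10000 UMI, within the 2-fold limit. Of the prostaglandin genes 3 of 5 were higher and 1 lower. PTGFR, the receptor through which prostaglandin F acts on luteal cells, stood at 4.69 against 0.177, and PTGS2, which starts prostaglandin synthesis, at 0.282 against 0.049. AKR1B1, an aldo-keto reductase with prostaglandin F synthase activity, stood at 0.505 against 0.758, and PTGER4 was too low to be counted. Of the regulators listed for the OXT promoter, 5 of 5 counted genes were lower, NR2F2, NR2F1, RORA and ESR1 among them, and the nuclear receptor NR2F2 stood at 0.316 against 0.947. Smooth muscle genes were lower in 3 of 5, with MYH11, a myosin heavy chain, at 0.128 against 3.42.

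The 5 largest rises after this rule were OXT, the globin genes LOC101105185 (49.7 against 0.086 UMI per 10000 UMI) and LOC100134870 (37.0 against 0.092), IL1RL1 (18.4 against 0.006, the latter 1 UMI) and the keratin gene KRT8 (13.0 against 0.049). In the HTRA3-led cluster of the same ewe KRT8 stood at 4.35, and IL1RL1 had no UMI. IL1RL1 was found in 50% of the 90 OXT-high cells and CYP11A1 in 91.1%. The 5 largest falls were IGFBP2, FST, GSTA1, TOP2A and SRGN. IGFBP2, which binds insulin-like growth factors, stood at 0.265 against 22.8, and TOP2A, a topoisomerase of dividing cells, at 0.034 against 4.39.

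Outside the OXT-high barcodes, OXT was found at low levels in many groups of cells. The HTRA3-led cluster stood at 0.462, 0.303 and 0.476 UMI per 10000 UMI in HLS replicates 1, 2 and 3 and at 0.484, 0.556 and 0.679 in LLS replicates 1, 2 and 3. Endothelial-like cells, taken as the background because they are not known to make oxytocin, stood at 0.0155, 0.0156 and 0.0127 in HLS and at 0.0215, 0.00754 and 0.305 in LLS. The cluster thus exceeded endothelial-like cells in 6 of 6 ewes, by 43.0 ± 8.93 UMI per 1000000 UMI (SD, n = 6). No test was made, as these barcodes were chosen by their OXT count. Immune-like cells had also been planned as background, but stood higher, at 25.9 ± 13.99 UMI per 1000000 UMI (SD, n = 6). That mean lay above the 20.3 ± 12.8 of granulosa-like cells, so only endothelial-like cells serve as background here.

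Granulosa-like cells stood between these levels, at 0.0921, 0.0928 and 0.156 UMI per 10000 UMI in HLS and 0.251, 0.191 and 0.434 in LLS. They lay above endothelial-like cells in 6 of 6 ewes, by 14.01 ± 6.01 UMI per 1000000 UMI (SD, n = 6). The C1QA-led immune-like cells, which carry complement genes of macrophages, stood at 0.226, 0.305 and 0.438 in HLS and 0.169, 0.444 and 0.381 in LLS, also above endothelial-like cells in every ewe, by 26.4 ± 14.7 UMI per 1000000 UMI (SD, n = 6). A single C1QA-led cell held 23 of the 32 OXT UMI of HLS replicate 2 and another 17 of the 29 of LLS replicate 1. Among perivascular-like cells, 1 cell held 24 of the 51 OXT UMI of LLS replicate 2. The CD3E-led immune-like cells, with T cell genes, stood at 0.0118 to 0.0650 in 5 ewes and at 0.736 in LLS replicate 3. Theca-like cells, at 0.0674 to 0.3996, exceeded endothelial-like cells in 5 of 6 ewes. The position above endothelial-like cells was shared by most groups. Perivascular-like cells (15.7 ± 14.8 UMI per 1000000 UMI higher), the ACTA2-led cluster (11.2 ± 13.4), the CD3E-led cells (9.05 ± 16.8) and stromal-like cells (8.22 ± 6.10) also lay above endothelial-like cells in 6 of 6 ewes (SD, n = 6). For the CD3E-led cells this rested on 1 OXT UMI in HLS replicate 1 and 1 in LLS replicate 2. In LLS replicate 3, OXT was found in 11.8% of the CD3E-led cells, at a median depth of 1843 UMI. The share there was 17.1% in endothelial-like cells, at a median depth of 5381.5 UMI.

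The order of mean levels left out the OXT-led cluster and B cell-like cells, which had at least 10 such cells in only 1 ewe each. In LLS replicate 3, 16 cells of the OXT-led cluster under the limit held 227 OXT UMI, or 86.3 UMI per 10000 UMI. Of the other groups the HTRA3-led cluster came first at 49.3 ± 12.4 UMI per 1000000 UMI (SD, n = 6). It was followed by Schwann-like cells at 44.0 ± 57.6 over 5 ewes, immune-like cells at 25.9 ± 13.99, perivascular-like cells at 22.0 ± 18.6, granulosa-like cells at 20.3 ± 12.8 and theca-like cells at 19.8 ± 12.9. Among Schwann-like cells, 1 cell held 11 of the 12 OXT UMI of HLS replicate 1, and LLS replicate 3 had 7 OXT UMI in 20 cells. The other ewes in the Schwann-like mean had 0 or 1. The ACTA2-led cluster (17.5 ± 25.02), stromal-like (14.5 ± 12.6), epithelial-like (11.8 ± 12.3 over 4 ewes), cycling-like (7.09 ± 5.93) and endothelial-like cells (6.29 ± 11.9) came last. Between each of the neighbours in this order the mean difference was smaller than its SD over ewes. Without LLS replicate 3 the endothelial-like level was 0.0146 ± 0.00505 and the HTRA3-led level 0.456 ± 0.0931 UMI per 10000 UMI (SD, n = 5). In the same units and ewes, immune-like cells stood at 0.209 ± 0.0739, theca-like cells at 0.190 ± 0.142 and perivascular-like cells at 0.172 ± 0.162. Granulosa-like cells stood at 0.157 ± 0.0678, stromal-like cells at 0.0998 ± 0.0664 and the ACTA2-led cluster at 0.0733 ± 0.0327. Cycling-like cells had 0.0473 ± 0.0142 and the CD3E-led cells 0.0369 ± 0.0231.

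**Figure D3:**
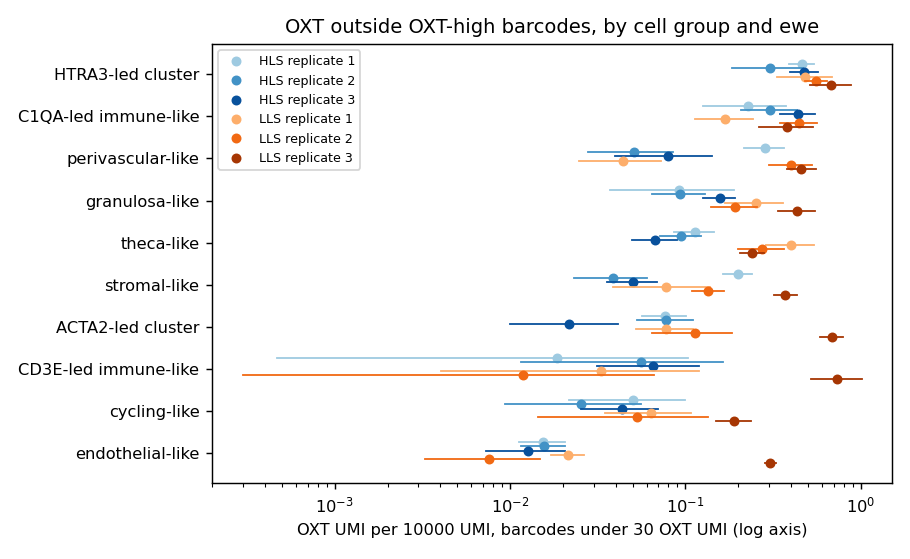
OXT in UMI per 10000 UMI (logarithmic axis) outside OXT-high barcodes, for 10 groups of cells and each of the 6 ewes, with 95% Poisson intervals. The HTRA3-led cluster lies above endothelial-like cells in every ewe, and LLS replicate 3 lies far above the other ewes in endothelial-like cells.

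The share of cells with any OXT was also higher in the HTRA3-led cluster than in endothelial-like cells when depth was set equal. Outside OXT-high barcodes, OXT was found in 239 of 892 cells of the HTRA3-led cluster (26.8%, median depth 11786.5 UMI), with at most 21 UMI in a cell. The OXT-high cell of this cluster, with 46 OXT UMI in HLS replicate 3, was left out. In the 5 ewes other than LLS replicate 3 the share was 26.8% in this cluster and 1.51% in endothelial-like cells, at median depths of 12408.5 and 9277 UMI. With each cell thinned to 1500 UMI, the shares were 6.55% over 763 cells and 0.207% over 11091 cells, and 33 and 462 shallower cells were left out. In LLS replicate 3 the 2 shares were closer, at 27.1% and 17.1% unthinned and 10.99% and 5.93% thinned.

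The low OXT counts of LLS replicate 3 were spread over cells of every named type that had at least 20 of its cells, in 15.2% to 30% of the cells of each. Their number per cell did not rise with the depth of the cell in the types given next. Endothelial-like cells of this ewe held 21.8, 21.4 and 16.9 OXT UMI per 100 cells at totals of 1000 to 3000, 3000 to 10000 and over 10000 UMI. Stromal-like cells of this ewe held 24.7, 26.3 and 22.6. In the HTRA3-led cluster of the other 5 ewes the number rose with depth, at 6.85, 33.8 and 85.3 OXT UMI per 100 cells, so that the level stayed between 0.394 and 0.493 UMI per 10000 UMI. It rose with depth too in endothelial-like cells of those 5 ewes, at 0.903, 1.07 and 2.68, with levels of 0.0497, 0.0160 and 0.0160 UMI per 10000 UMI. In LLS replicate 3, OXT in a cell type at a share near that of endothelial-like cells was not told apart from this background. No limit was set for such a share, and the source of these counts was not tested.

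The HTRA3-led cluster held some of the listed genes that were high in the OXT-high cells, given here with no test. Its PCSK1 level was 1.80 ± 0.724 UMI per 10000 UMI, against 0.128 ± 0.0775 in granulosa-like cells (SD, n = 6 ewes). CYP11A1 stood at 3.13 ± 0.982 and PTGFR at 0.862 ± 0.247, against 0.713 ± 0.814 and 0.0717 ± 0.0535. HSD3B1 stood at 0.0245 ± 0.0373 against 0.160 ± 0.124. AVP was near 0 in both, at 0.00396 ± 0.00522 and 0.00505 ± 0.00505.

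OXTR was rare in these libraries. Its 66 UMI lay in 45 barcodes, 0.0861% of all, and 37 of these had 1 UMI. HLS replicates 1, 2 and 3 held 6, 9 and 12 UMI and LLS replicates 1, 2 and 3 held 7, 22 and 10. Of all 30574 genes, 40.3% had fewer UMI. The 8 barcodes with at least 2 UMI held 29 of the 66, and 3 of them belonged to the HTRA3-led cluster, 2 to the ACTA2-led cluster and 1 each to endothelial-like, theca-like and granulosa-like cells. Of the 45 barcodes with OXTR, 4 also had OXT, which was found in 5.85% of all barcodes. No OXT-high barcode had OXTR, which in the 90 retained cells of LLS replicate 3 allows a share of up to 3.33% of cells with a UMI.

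By cell type, the HTRA3-led cluster held the most OXTR UMI and the ACTA2-led cluster, with smooth muscle genes among its leading genes, was the one with OXTR in all 6 ewes. The HTRA3-led cluster held 18 UMI in 7 cells, with 0, 0 and 5 UMI in HLS replicates 1, 2 and 3 and 0, 11 and 2 in LLS replicates 1, 2 and 3. A cell of LLS replicate 2 alone held 9 of these. The ACTA2-led cluster held 12 UMI in 8 cells, with 1, 2 and 4 UMI in HLS and 2, 2 and 1 in LLS. Endothelial-like cells held 10 UMI in 9 of 15005 cells (0.0600%, median depth 8306 UMI), against 0.784% in the HTRA3-led cluster (11793 UMI) and 0.184% in the ACTA2-led cluster (3632 UMI).

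Granulosa-like cells had 6 OXTR UMI in 2 cells, both from LLS replicate 3, and 0 UMI in 1799 cells of the other 5 ewes, which allows a share of up to 0.167% of cells with a UMI. Stromal-like cells held 7 UMI, theca-like cells 5, cycling-like cells 3, perivascular-like cells 2 and epithelial-like cells 1. In 2667 immune-like cells no OXTR UMI was found, which allows up to 0.112% of cells with a UMI at a median depth of 3029 UMI.

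**Figure D4:**
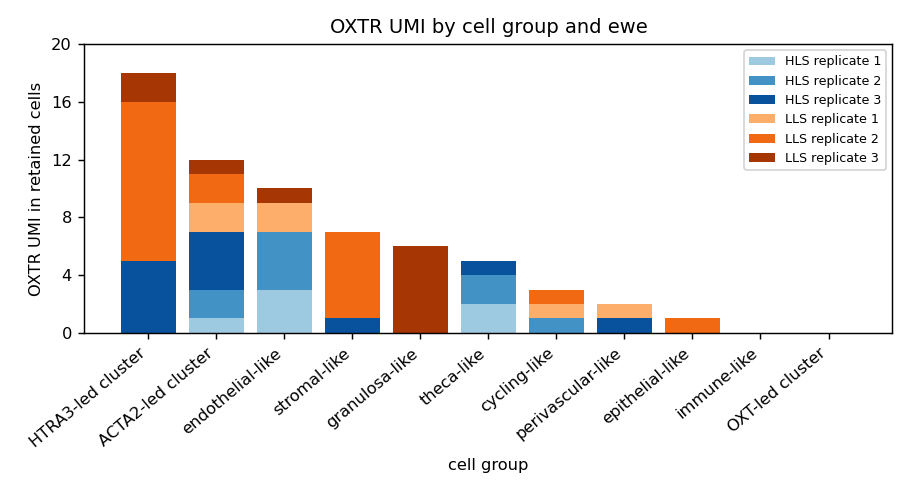
OXTR UMI (vertical axis, counts) in each group of cells, stacked by ewe. The 18 UMI of the HTRA3-led cluster come from 3 ewes, and the 12 of the ACTA2-led cluster come from all 6.

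These counts were too few to order the types. In UMI per 1000000 UMI, OXTR averaged 1.26 ± 1.41 in the HTRA3-led cluster, 0.661 ± 0.452 in the ACTA2-led cluster, 0.611 ± 1.497 in granulosa-like, 0.366 ± 0.514 in cycling-like, 0.171 ± 0.360 in stromal-like, 0.169 ± 0.295 in perivascular-like, 0.165 ± 0.331 in epithelial-like, 0.141 ± 0.173 in theca-like and 0.0541 ± 0.0532 in endothelial-like cells (SD, n = 6 ewes, 4 for epithelial-like cells). The HTRA3-led cluster exceeded the ACTA2-led cluster by 0.596 ± 1.13, higher in 3 of 6 ewes (two-sided exact sign-flip permutation test, p = 0.281, adjusted p = 0.844 over 9 neighbouring pairs), and the difference was 0.303 without LLS replicate 3 and 0.395 without LLS replicate 2. None of the 9 pairs passed, with exact p from 0.25 to 1. The smallest exact p that 6 ewes allow is 0.031, which for a single pair could not pass after adjustment over 9 pairs, and 3 of the pairs had only 4 or 5 ewes. The ACTA2-led cluster lay above endothelial-like cells in 6 of 6 ewes, by 0.607 ± 0.493 UMI per 1000000 UMI, a pair that was not among those tested.

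Neither gene passed the adjusted threshold between HLS and LLS. The share of retained cells that were OXT-high was 0.0231% ± 0.0122 in HLS and 0.433% ± 0.723 in LLS (SD, n = 3 each), a difference of -0.410 percentage points with a two-sided exact permutation p of 0.8, where 3 against 3 ewes cannot go below 0.1. The LLS mean rests on LLS replicate 3, and without it the difference was 0.00717 percentage points, with HLS higher. With the UMI of all retained cells summed per ewe, the log2 fold change of OXT, HLS against LLS, was -4.78 (SE 1.72, edgeR adjusted p = 0.998). Without LLS replicate 3 it was -0.28, and with the OXT-high barcodes and the OXT-led cluster left out, an alternative chosen after seeing the data, it was -1.08 (edgeR adjusted p = 0.997).

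In separate fits for 8 groups of cells, OXT passed the adjusted threshold in none and had an unadjusted p under 0.05 in 4. In granulosa-like cells the log2 fold change was -1.11 (SE 0.37, edgeR adjusted p = 0.949), or -0.66 without LLS replicate 3, and in theca-like cells it was -1.49 (SE 0.34, edgeR adjusted p = 0.987). In endothelial-like cells, taken as the background, it was -2.83 (edgeR adjusted p = 0.9996), and in the HTRA3-led cluster -0.12 (edgeR adjusted p = 0.991). In cycling-like, stromal-like, perivascular-like and immune-like cells it was -1.36, -0.89, 0.27 and -0.06. Unlike the levels by group above, these fits kept OXT-high cells. In HLS replicate 1, 2 perivascular-like cells held 43 and 59 OXT UMI, against 58 in the other 349. An immune-like cell of HLS replicate 2 held 41, and an HTRA3-led cell of HLS replicate 3 held 46. Without OXT-high cells, perivascular-like cells averaged 0.138 UMI per 10000 UMI in HLS and 0.301 in LLS. None of the fits passed. In 3 of the 8 groups every LLS ewe nevertheless lay above every HLS ewe in OXT. In granulosa-like cells, with the levels given above, 13.3% of 10556 genes showed the same order. Poisson intervals of the 2 groups overlapped there, as in HLS replicate 3 (0.127 to 0.191) and LLS replicate 2 (0.141 to 0.255). Theca-like cells stood at 0.113, 0.0945 and 0.0674 UMI per 10000 UMI in HLS and 0.3996, 0.274 and 0.24 in LLS, an order seen for 8.06% of 12251 genes. A single theca-like cell held 18 of the 41 OXT UMI of LLS replicate 1 and another 22 of the 45 of LLS replicate 2. Cycling-like cells stood at 0.0504, 0.0255 and 0.0437 in HLS and 0.0640, 0.0527 and 0.189 in LLS, an order seen for 4.87% of 10762 genes. The cycling-like levels of LLS replicates 1 and 2 rested on 14 and 4 OXT UMI, and their Poisson intervals overlapped those of the HLS ewes. In LLS replicate 3, OXT was found in 17.6%, 21.3% and 19.1% of granulosa-like, theca-like and cycling-like cells. These shares lay near the 17.1% of its endothelial-like cells, so its place in these 3 orders was not told apart from background.

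For OXTR the log2 fold change over all retained cells was -0.68 (SE 0.68, edgeR adjusted p = 0.998), or 0.20 without LLS replicate 2, and OXTR did not pass the filter on low counts in any cell type. Per 1000000 UMI of the library OXTR stood at 0.137 ± 0.0511 in HLS and 0.256 ± 0.222 in LLS (SD, n = 3 each, two-sided exact permutation p = 0.6). Across the transcriptome edgeR called 0% of 17939 genes between the groups in all cells (546 at an unadjusted p under 0.05, and 0.34% by DESeq2) and 0% of 10556 genes in granulosa-like cells (524 unadjusted). In granulosa-like cells DESeq2 called 0.0379%, edgeR with a replicate block 0.00947%, and edgeR with no filter on low counts 0.499% of 20037 genes. Of 74 genes of the listed pathways tested in all cells, 0 were called by edgeR, 3 had an unadjusted p under 0.05 and 0 were called by DESeq2. In granulosa-like cells the counts for 54 such genes were 0, 9 and 0.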

How the data were processed

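The 6 libraries were made with Chromium 3' v3 chemistry, and read mapping by the authors used Cell Ranger 5.0.0 with STAR; the genome build is not given in the sources used here. The authors deposited raw UMI counts per gene and barcode, which were used as they are. Ewes were grouped by the labels. OXT and OXTR, the gene lists and the limit of 30 OXT UMI were chosen with earlier results of these data known.

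Cells had to have at least 200 genes and 1000 UMI, a log10 ratio of genes to UMI of 0.7 or more, and at most 10% mitochondrial and 5% haemoglobin UMI. Also removed were doublets called per ewe against simulated doublets (2 per cell), 2007 of the 38464 barcodes that passed. Cells were clustered on 2000 variable genes without OXT and OXTR, 30 principal components and 20 neighbours with leidenalg 0.10.2 at a resolution of 0.8. Levels are UMI of the gene per 10000 or per 1000000 UMI of all cells of a group in an ewe, for groups of at least 10 cells. Intervals are exact Poisson or Clopper-Pearson at 95%. The share allowed where 0 was found is instead 3 counts over the number of cells or barcodes, which is tighter than those intervals.

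UMI were summed per ewe, filtered with filterByExpr, scaled with TMM factors and compared between HLS and LLS in R 4.3.3 (edgeR 4.0.16, quasi-likelihood test), fitted across all genes and adjusted by Benjamini-Hochberg with a threshold of 0.05; DESeq2 1.42.0 was an alternative. Each ewe was 1 replicate. The tests were checked on simulated data with 200 changed genes. In the check of edgeR, the changed genes all had mean counts above that of OXTR, and all genes had the same spread. It therefore did not cover counts as low as those of OXTR or as uneven as those of OXT. Python 3.11.15, numpy 2.4.6, scipy 1.17.1, pandas 2.3.3, scikit-learn 1.9.0 and matplotlib 3.10.9 were used. Other settings were a mitochondrial limit of 20%, no doublet removal, resolutions of 0.4 and 1.6, OXT and OXTR kept in clustering, limits of 10 and 100 OXT UMI or 50 per 10000, cells thinned to 1500 UMI, all deposited barcodes, no TMM factors, no filter, a replicate block, and each ewe left out.

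The text names OXT and OXTR, the 4 genes of each list with the highest level, the 5 genes most correlated with each member, and the 5 largest rises and falls, with exceptions stated, apart from 2 genes that are not reported here. HBA1, LNPEP, PCSK2 and SCG5 of the lists were not analysed here. Of the gene symbols, 25805 matched RefSeq for the assembly ARS-UI_Ramb_v3.0, used only for neighbouring genes.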

Additional observations from a re-analysis of the deposited data

How the results depend on the processing

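The share of OXT UMI held by OXT-high cells, 90.6% over all retained cells, was 91.0% with no doublet removal, 92.1% and 87.2% with limits of 10 and 100 OXT UMI, 90.2% over all deposited barcodes, and 15.8% to 91.8% with each ewe left out, lowest without LLS replicate 3. The difference in the share of OXT-high cells ranged from -0.627 to 0.00717 percentage points with each ewe left out and turned to HLS higher only without LLS replicate 3. The log2 fold change of OXTR over all cells ranged from -1.09 to 0.20 and turned only without LLS replicate 2. That of OXT ranged from -5.35 to -0.28 over all cells and from -1.45 to -0.66 in granulosa-like cells. OXT outside OXT-high barcodes stayed above endothelial-like cells in granulosa-like cells and in the HTRA3-led cluster under all 15 alternatives run for each. Immune-like cells, also planned as background, were not part of these comparisons. With the HTRA3-led cluster in place of granulosa-like cells, a choice added after seeing the data, 903 genes were at least 2-fold higher in OXT-high cells and 1472 lower, against 1167 and 1531. The cause of these changes was not tested.

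The deviations of ewes with the same replicate number from their group means had correlations of -0.05, -0.31 and 0.04 over all cells. In granulosa-like cells they were 0.08, 0.14 and 0.24. Ewes with different numbers were not compared, so whether the numbers pair the ewes was not tested. With a replicate block the log2 fold change was -2.01 for OXT and -0.48 for OXTR over all cells and -1.15 for OXT in granulosa-like cells, none past the threshold. In granulosa-like cells the number of genes called was 0 with edgeR, 4 with DESeq2, 1 with the block and 100 with no filter on low counts, and over all cells it was 0, with 61 by DESeq2. DESeq2 gave no p for OXT over all cells. With the mitochondrial limit of 20%, OXTR over all cells did not pass the filter and got no test, and without LLS replicate 3 no ewe had 10 OXT-high cells, so the contrast with granulosa-like cells has no value. The 66 OXTR UMI limit every comparison of the receptor.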

Other observations

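Over 85 sums of UMI by ewe and group of cells, the genes whose log2(CPM + 1) was most like that of OXT among 17533 genes were KIF21B, a kinesin (Pearson r = 0.61), the globin genes LOC101105185 (0.61) and LOC100134870 (0.61), LOC121817116 (0.60) and SNCB (0.58). Without the OXT-led cluster they were KIF21B (0.61), PLIN2, which coats lipid droplets (0.58), SLCO3A1 (0.54), EML2 (0.53) and RUNX2, a transcription factor (0.52). KIF21B stood at 0.385 UMI per 10000 UMI in the OXT-led cluster of LLS replicate 3 and at 0.213 ± 0.0863 in the HTRA3-led cluster (SD, n = 6 ewes). Granulosa-like cells, with less OXT than the HTRA3-led cluster, had nearly as much KIF21B, at 0.198 ± 0.0751. Endothelial-like cells had 0.00844 ± 0.00207 (SD, n = 6 ewes). Genes among the most alike to OXTR were SLC47A1 (0.55), STX1A (0.54), LOC101108797 (0.53) and SERP2 (0.52), from the 65 OXTR UMI of retained cells. The sums share libraries and depth, so these values are descriptions.

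In LLS replicate 3 the ratio of OXT UMI to LOC101105185 UMI was 6.54 in OXT-high cells, 3.803 in endothelial-like, 3.93 in perivascular-like, 4.59 in stromal-like and 5.07 in granulosa-like cells, and 27.5 in the HTRA3-led cluster, where the globin gene had few UMI. Theca-like cells of this ewe, with 157 OXT and 21 LOC101105185 UMI, also had a higher ratio than the OXT-high cells. FDX1 varied among the OXT-high cells, at 22.0 UMI per 10000 UMI in those under 0.5% mitochondrial UMI, 9.04 from 0.5% to 2% and 6.70 at 2% and over.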
